A study of Mus musculus with 3 samples.

Results

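MHC class I processing and cross-presentation was followed through 31 genes of the 32285 in the count matrices. The 31 were chosen by their function from a list of gene names, with earlier results of these data known. They are the class I heavy chains *H2-K1*, *H2-D1*, *H2-Q4*, *H2-Q6*, *H2-Q7*, *H2-T22*, *H2-T23*, *H2-T24* and *H2-M3*, the light chain *B2m*, the transcriptional activator *Nlrc5*, the peptide transporter and loading genes *Tap1*, *Tap2*, *Tapbp*, *Tapbpl* and *Erap1*, the catalytic proteasome subunits *Psmb5* to *Psmb10*, the proteasome activators *Psme1*, *Psme2* and *Psme3*, and the cross-presentation genes *Wdfy4*, *Sec22b*, *Lnpep*, *Rab27a*, *Rab11a* and *Sec61a1*.

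MHC class I molecules show peptides from inside a cell to CD8+ T cells. Proteasomes make the peptides, the TAP transporter carries them into the endoplasmic reticulum, and tapasin helps to load them on a heavy chain paired with its light chain; interferons exchange the constitutive catalytic subunits of the proteasome for immunoproteasome subunits. Conventional type 1 dendritic cells (cDC1s) are known for cross-presentation, in which peptides from engulfed material such as tumour cell debris reach MHC class I, and DNGR-1, the product of *Clec9a*, is their receptor for F-actin exposed on dead cells, which secreted gelsolin (sGSN) severs.

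Single-cell RNA sequencing was done on dendritic cells sorted from MCA205 LA-OVA tumours, a transplanted fibrosarcoma line expressing ovalbumin, 5 days after injection. There was 1 library for each of 3 genotypes, all on the C57BL/6J background: WT, sGSN-/- and sGSN-/-Clec9a-/- mice. Each library pooled tumours from male and female mice aged 6 to 20 weeks, with 25 males and 12 females for WT, 15 males and 16 females for sGSN-/-, and 10 males and 17 females for sGSN-/-Clec9a-/-, and each mixed sorted pre-cDCs (CD135+ CD43+), XCR1+ cDC1s and *Sirpa*+ cDC2s from one CD45+ CD11c+ MHCII+ CD88- gate before loading. That gate also left out lineage-positive cells, among them those with NK1.1, *Cd3e* or Ly6G on their surface. In that order, the matrices held 176578136, 109270958 and 113411930 UMIs (unique molecule counts) in 12763, 8173 and 9273 barcodes. Neither genotype nor sex, age or tumour can be told apart from the library, so no test between genotypes was possible and all per-library values below are in the order WT, sGSN-/- and sGSN-/-Clec9a-/-.

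*Clec9a*, the deleted gene, had 5502, 3970 and 2 UMIs in the cDC1s of the 3 libraries. These are 168, 168.5 and 0.0931 counts per 1000000 UMIs (CPM), and the exact 95% Poisson interval of the third, 0.0113 to 0.336 CPM, lies below those of the others. *Gsn* was at 152, 169 and 167 CPM, a level that does not test the sGSN-/- label because the transcript of the secreted form is not counted apart. The libraries shared few barcodes, 26 between WT and sGSN-/-, 28 between WT and sGSN-/-Clec9a-/- and 27 between the others.

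A deposited table assigns 5806 barcodes to 12 clusters of cDC1s. Clusters 4 and 1 are early cDC1s (1332 cells), clusters 5, 2, 3, 6 and 0 resting cDC1s (3499 cells, with cluster 5 marked by unfolded protein response genes), and clusters 7 (interferon-stimulated genes, 422 cells), 9 (NF-kB targets, 162 cells), 10 (*Cxcl9*, 76 cells) and 8 (*Ccr7* and *Il12b*, 255 cells) activated cDC1s. The 60 cells of cluster 11, marked by mitochondrial transcripts and holding 43470, 78284 and 29230 UMIs, entered no cluster comparison, and every order of clusters below is over the other 11. The 7 cDC1 markers listed, *Naaa* the most abundant, summed to 2386, 2318 and 2378 CPM in the table's cells, against 413, 481 and 492 CPM in the 8580 barcodes outside the table with at least 1 UMI of *Cd209a*, a cDC2 marker. Those barcodes are a group defined by a *Cd209a* UMI and not a cell type: 749, 508 and 271 of them also had UMIs of *Xcr1* or *Clec9a*. The 271 of sGSN-/-Clec9a-/-, where *Clec9a* is deleted, rest mainly on *Xcr1* and do not compare with the others. Macrophage markers summed there to 1239, 1224 and 1462 CPM beside 1610, 1515 and 1544 CPM for cDC2 markers. Of the table's own cells, 10.9%, 8.995% and 8.72% had a *Cd209a* UMI, against 39.3%, 29.8% and 33.9% of barcodes outside the table.

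UMIs were summed per library for each group of cells, so every comparison has n = 3 libraries a side, and the spread between them contains genotype. A gene counts as higher or lower where edgeR's quasi-likelihood test gave an adjusted p (Benjamini-Hochberg over all genes tested) below 0.05. The clusters were drawn from the same counts, so a small adjusted p says that the libraries were alike and not that a cluster exists. Several comparisons share the resting cells, and their values are set side by side without a test of the difference between them. CPM values compare 1 gene between cells, not genes with each other.

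**Figure D1:**
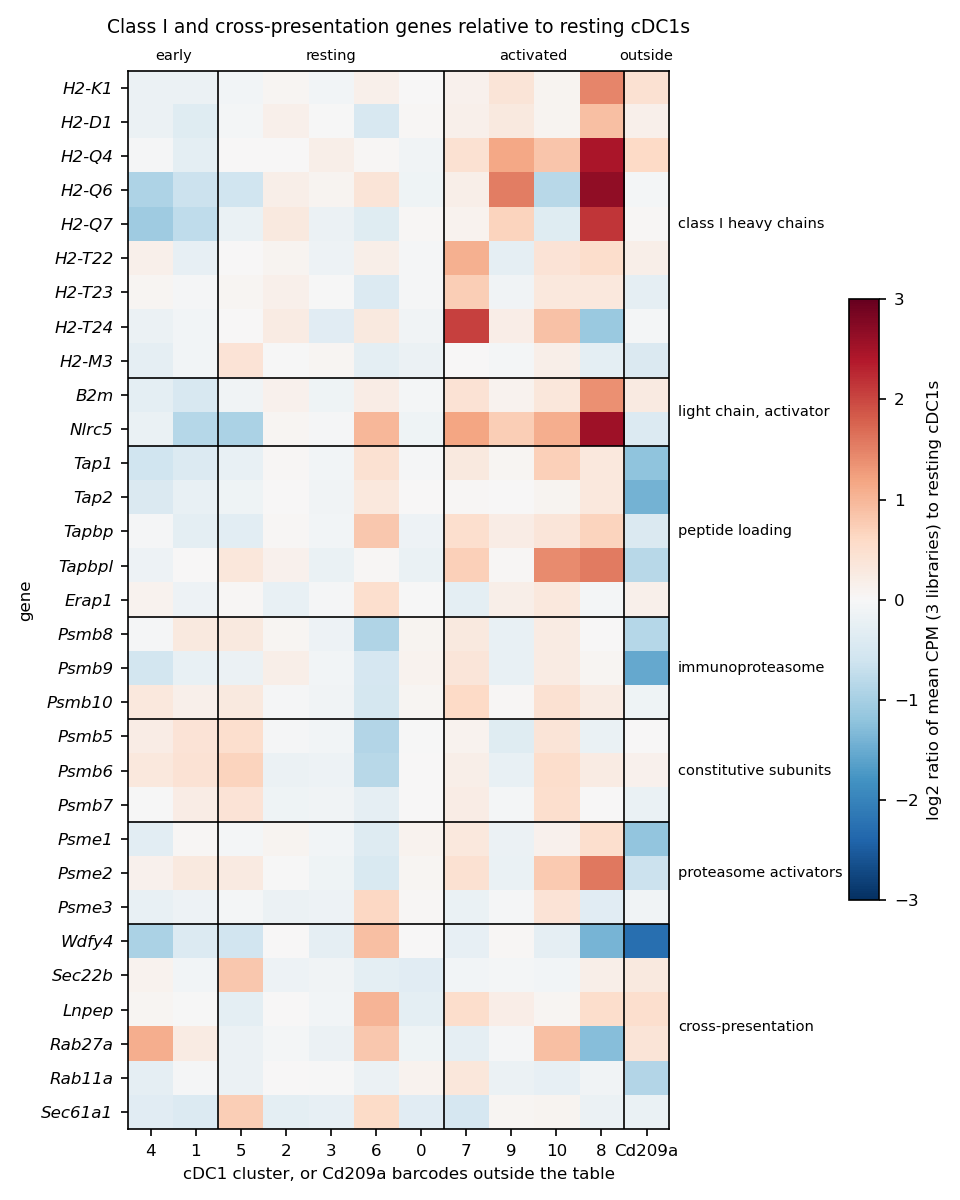
Each square is the log2 ratio of a gene's mean CPM over 3 libraries to its mean in resting cDC1s, on a scale from -3 to 3, for the 31 genes (grouped by role) in 11 clusters and in the *Cd209a* barcodes. *H2-Q6*, *Nlrc5* and *H2-Q7* reached 194, 93.7 and 476 CPM in cluster 8, and *Wdfy4* ran from 887 CPM in cluster 6 down to 180 CPM in cluster 8.

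Cluster 8, the activated cells marked by *Ccr7* and *Il12b*, held higher relative transcript levels of most of the pathway than resting cDC1s. Higher were 7 of 9 heavy chains, the light chain, the transporter, *Tapbp*, *Tapbpl*, a pair of proteasome activators and *Nlrc5*, and *Wdfy4* was lower. Of the 31 genes, 18 were higher (58.1%) and 2 lower (6.45%), where 22.8% of the 10407 genes tested were higher and 20.2% lower. Their median log2 fold change was 0.49, against -0.07 over all genes tested. The 2 called lower were *Wdfy4* and *Rab27a*.

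*H2-K1*, a classical heavy chain, stood at 2213, 2335 and 1849 CPM in cluster 8 and at 752, 768 and 795 CPM in resting cDC1s. *H2-D1*, the other classical heavy chain of this strain, was at 3060, 3219 and 2544 CPM against 1604, 1557 and 1569 CPM. *B2m*, which encodes the light chain that every class I heavy chain here pairs with, was at 3070, 3208 and 2354 CPM against 1115, 1092 and 1118 CPM. For these 3 genes every library of cluster 8 lay above every resting library, and sGSN-/-Clec9a-/- was the lowest of the cluster 8 libraries. The fold change of *H2-K1* was 1.66 on the log2 scale (SE 0.11), with adjusted p = 1.2e-08 by edgeR's quasi-likelihood F test (Benjamini-Hochberg), higher in 3 of 3 libraries. *B2m* differed by a log2 fold change of 1.57 (SE 0.12) and *H2-D1* by 1.09 (SE 0.11), each higher in 3 of 3 libraries.

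The Q-region heavy chains, non-classical class I genes, showed larger fold changes than the classical pair. *H2-Q6* was at 196, 202 and 182 CPM in cluster 8 and at 28.5, 28.1 and 35.2 CPM in resting cDC1s. *H2-Q7*, part of the Qa-2 antigen, was at 447, 508.5 and 474 CPM against 94.4, 104 and 124 CPM. *H2-Q4* was at 176, 139 and 105 CPM against 28.1, 24.7 and 24.7 CPM. All libraries of cluster 8 were above all resting libraries for these 3 genes, and *H2-Q4* was the one with the wider spread. *H2-Q6* had a log2 fold change of 2.86 (SE 0.13) with adjusted p = 1.2e-10 by edgeR's quasi-likelihood F test (Benjamini-Hochberg), higher in 3 of 3 libraries, and the log2 fold changes of *H2-Q4* and *H2-Q7* were 2.67 and 2.34.

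The T-region and M-region genes differed less. *H2-T22* was higher by a log2 fold change of 0.77 and *H2-T23*, which encodes Qa-1, by 0.52 with overlapping libraries. *H2-T24* averaged 1.43 ± 1.26 CPM (SD, n = 3) in cluster 8 and 3.10 ± 0.270 CPM in resting cDC1s, and *H2-M3* 71.6 ± 11.4 and 88.0 ± 8.27 CPM, neither past the threshold.

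*Nlrc5*, the activator of class I gene transcription, was at 102, 84.2 and 95.1 CPM in cluster 8 and at 16.5, 15.6 and 16.3 CPM in resting cDC1s. The 2 ranges lie far apart, with less spread among the 3 genotypes than for *H2-K1*. The log2 fold change was 2.71 (SE 0.12) with adjusted p = 1.6e-10 by edgeR's quasi-likelihood F test (Benjamini-Hochberg), higher in 3 of 3 libraries. Among the loading genes, *Tapbpl*, which encodes the peptide editor TAPBPR, was at 92.0, 109 and 69.9 CPM against 28.4, 33.4 and 29.7 CPM, a log2 fold change of 1.82. *Tapbp* (tapasin), *Tap2* and *Tap1* were higher by log2 fold changes of 0.86, 0.50 and 0.49, and the trimming enzyme *Erap1* did not pass (0.09).

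Calls among the proteasome genes were mixed. The activator subunits *Psme1* and *Psme2*, which form the PA28 cap, were higher, and *Psme2*, chosen for full values after its values were seen, stood at 1226, 1197 and 871 CPM against 359, 390 and 353 CPM. Its log2 fold change was 1.78 (SE 0.12), higher in 3 of 3 libraries, and that of *Psme1* was 0.70. *Psme3*, the nuclear activator, was at 20.3, 19.7 and 50.5 CPM against 36.8, 39.2 and 39.2 CPM and did not pass. Of the catalytic subunits, *Psmb6* and *Psmb10* were higher by log2 fold changes of 0.46 and 0.48. The immunoproteasome subunits *Psmb8* and *Psmb9* averaged 1283 ± 135 and 689 ± 51.5 CPM in cluster 8 against 1275 ± 90.2 and 667 ± 20.6 CPM in resting cDC1s, and neither passed.

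*Wdfy4*, which encodes a protein that cDC1s need to cross-present cell-associated antigen, was at 128, 132 and 279 CPM in cluster 8 and at 457, 473 and 494 CPM in resting cDC1s. The 3 cluster 8 libraries all lay below the resting ones, and sGSN-/-Clec9a-/- was above the others of its cluster. The log2 fold change was -1.30 (SE 0.22) with adjusted p = 1.9e-04 by edgeR's quasi-likelihood F test (Benjamini-Hochberg), higher in 0 of 3 libraries. *Lnpep*, the insulin-regulated aminopeptidase of endosomes, was higher by a log2 fold change of 0.71. *Rab27a*, a GTPase of vesicle traffic, was at 7.75, 4.72 and 1.94 CPM against 12.2, 10.3 and 12.2 CPM, and *Sec22b*, *Rab11a* and *Sec61a1* did not pass.

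Of 57 other pathway genes tested in cluster 8, 21 were higher (36.8%) and 11 lower (19.3%, near the 20.2% of all genes), with a median log2 fold change of 0.13. *H2-M2*, a non-classical heavy chain, had 9, 6 and 15 UMIs in the 255 cells of cluster 8 and 0 in the 3499 resting cells. Against the floor of 3 counts over all resting libraries it was at least 170.2-fold higher, and at least 75.1-fold without the sGSN-/-Clec9a-/- library, 105.2-fold without WT and 178.4-fold without sGSN-/-. The lipid-presenting *Cd1d1* was higher by a log2 fold change of 3.83 and *Cybb*, the NADPH oxidase subunit that limits phagosome acidity, by 2.97. *Rab7b* and *Kctd14* were lower by log2 fold changes of -1.60 and -1.57, *Kctd14* by -2.37 without the sGSN-/- library. The oligopeptidase *Thop1* had 0, 0 and 1 UMIs in cluster 8 against 75, 39 and 47 UMIs in resting cells and passed as lower, a call that ended without the WT (-2.29) or the sGSN-/- library (-2.28). Without sGSN-/-Clec9a-/-, which holds its 1 UMI in cluster 8, *Thop1* was at 0 there, and its fitted value of -7.91 depends on the prior count and is no bound.

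Scaling by library size without TMM factors shifted the median of all genes in cluster 8 by -0.19 on the log2 scale, and the share of called genes that were higher went from 53.1% to 38.7%. *Tap1*, *Psmb6* and *Psmb10* then no longer passed (0.30, 0.27 and 0.29), nor did *Psmb6* and *Psmb10* without the WT library (0.35 and 0.34), *Psmb10* without the sGSN-/- library (0.37), or *Rab27a* without WT (-1.34), sGSN-/- (-0.93) or sGSN-/-Clec9a-/- (-0.71), while *Psmb8* passed without sGSN-/-Clec9a-/- (0.28; 0.13 without sGSN-/-) and *Psmb9* with DESeq2 (0.23). Macrophage markers, all with UMIs and *Apoe* the most abundant, summed to 569, 54.3 and 69.9 CPM in cluster 8 against 55.4, 41.0 and 45.7 CPM in resting cDC1s. NK cell markers, *Gzma* the most abundant, summed to 15.5, 126 and 21.3 CPM against 9.61, 32.0 and 17.3 CPM. Cycling markers, all with UMIs and *Mki67* the most abundant, summed to 74.6, 79.5 and 15.5 CPM against 17.1, 18.2 and 13.4 CPM. Without the WT library, *H2-K1* and *Nlrc5* were higher in cluster 8 by log2 fold changes of 1.61 and 2.65, and without the sGSN-/- library by 1.54 and 2.74. The cDC2 markers summed to 97.85, 27.55 and 67.9 CPM in cluster 8 against 28.1, 25.7 and 25.2 CPM in resting cDC1s. The cDC1 markers summed to 804, 768 and 941 CPM in cluster 8 against 2721, 2720 and 2721 CPM. The part of all these markers in the result was not tested.

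**Figure D2:**
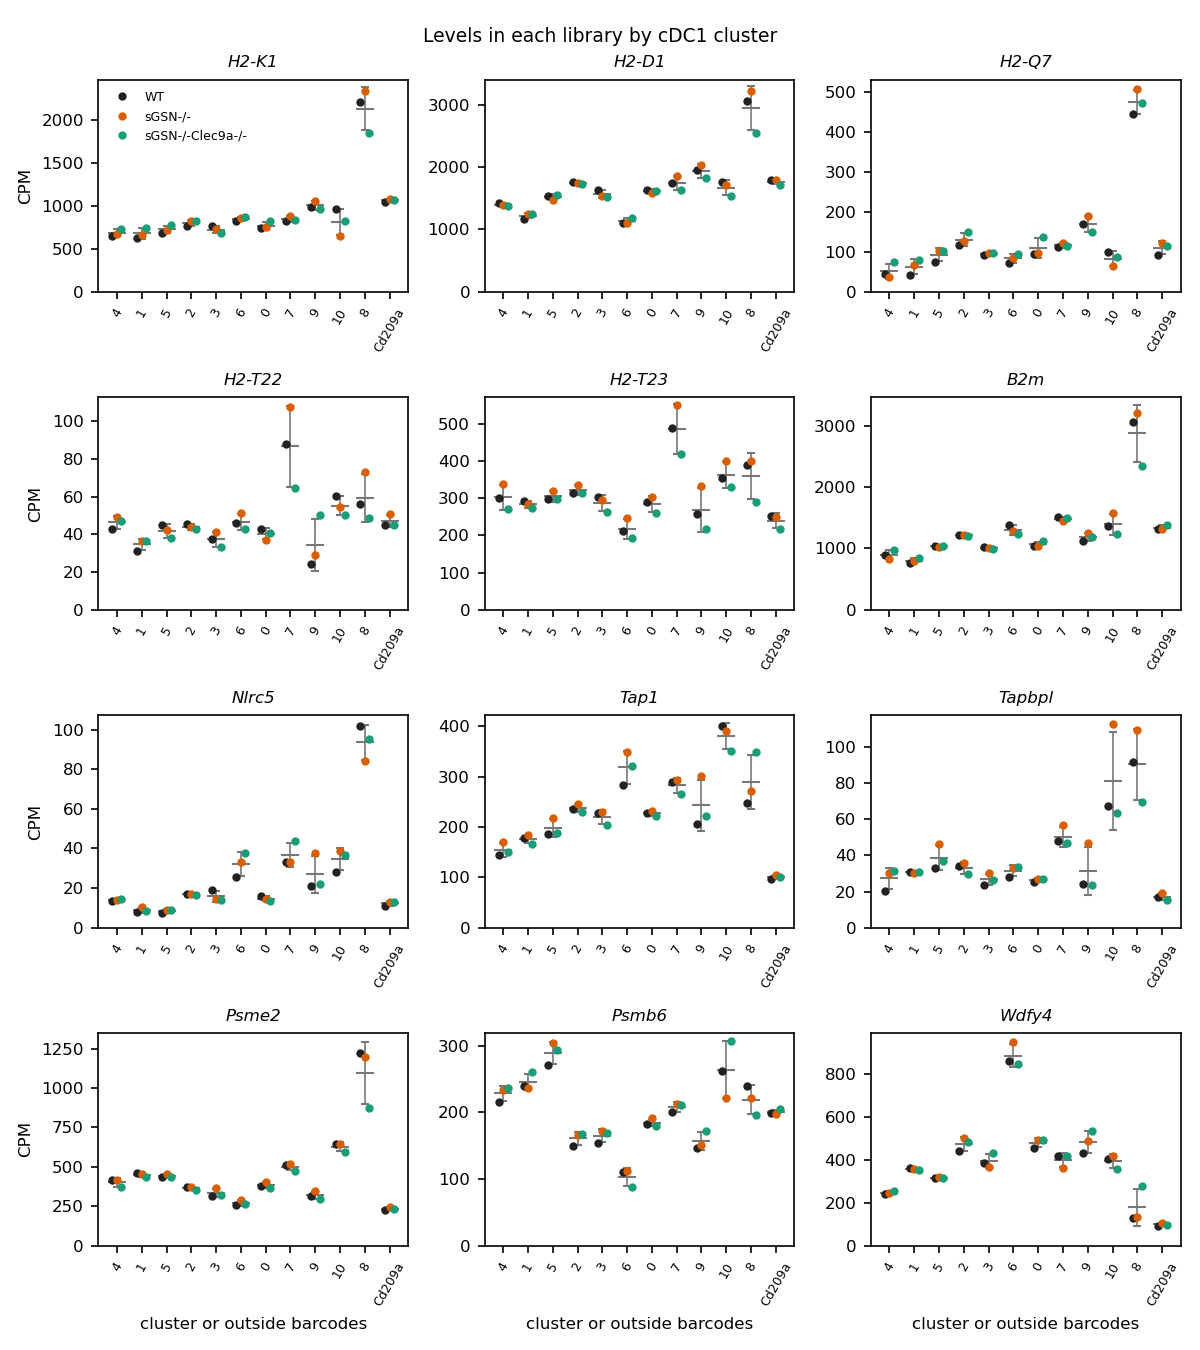
Points are the 3 libraries and bars their mean ± SD in CPM, from 0, for 12 of the genes in 11 clusters and in the *Cd209a* barcodes. Of the clusters plotted, *H2-K1*, *B2m* and *Nlrc5* are highest in cluster 8, *H2-T23* in cluster 7 and *Tap1* in cluster 10, whose 3 libraries lie between 351 and 400.4 CPM.

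In cluster 10, marked by *Cxcl9*, *Tap1*, *Tapbpl*, *Psme2*, *Nlrc5*, *H2-Q4* and *Psmb6* were higher than in resting cDC1s, and the classical heavy chains and the light chain did not pass. The 6 genes higher are 19.4% of the 31, and 0 were lower, where 6.31% of 10061 genes tested were higher and 6.08% lower; the median log2 fold change was 0.26 against -0.11 over all genes. At an unadjusted p below 0.05, edgeR had 2 of the 31 lower, and DESeq2 called 0 lower. The cluster's 76 cells held 891318 UMIs, the least of the 4 activated clusters.

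*Tap1*, a subunit of the peptide transporter, was at 400.4, 390 and 351 CPM in cluster 10 and at 230, 240 and 227 CPM in resting cDC1s. These were above all libraries of the other clusters compared, but cluster 11, left out for its few UMIs, was at 460.1, 575 and 308 CPM (20, 45 and 9 UMIs). The log2 fold change was 0.65 (SE 0.11) with adjusted p = 2.8e-04 by edgeR's quasi-likelihood F test (Benjamini-Hochberg), higher in 3 of 3 libraries. *Tapbpl* was at 67.3, 113 and 63.6 CPM, a log2 fold change of 1.37, and *Psme2* at 645, 644 and 596 CPM, a log2 fold change of 0.71. *Nlrc5* was at 28.3, 38.7 and 36.8 CPM, a log2 fold change of 1.05.

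*H2-K1* was at 964, 654 and 823 CPM in cluster 10, on both sides of the resting values. Its log2 fold change of 0.01 (SE 0.13) had adjusted p = 0.98 by edgeR's quasi-likelihood F test (Benjamini-Hochberg), higher in 2 of 3 libraries. *H2-D1* did not pass either (0.02). *B2m* was at 1368, 1582 and 1232 CPM, above the resting libraries, with a log2 fold change of 0.27 that passed with DESeq2 (0.31) and without TMM factors (0.33) and was 0.13 without the sGSN-/- library. *H2-Q6* had 7, 1 and 7 UMIs in the cells of cluster 10, so its mean of 17.1 ± 12.1 CPM rests on few counts. *Psmb8*, *Psmb9*, *Psmb10* and *Wdfy4* had log2 fold changes of 0.19, 0.20, 0.40 and -0.33 and did not pass, though *Psmb10* did without the WT library (0.54) and without TMM factors (0.46), but was at 0.24 without sGSN-/-Clec9a-/-, where *Psmb8* and *Psmb9* were at 0.09 and 0.07, and *Wdfy4* did with no filter on low counts (-0.38).

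Of 55 other pathway genes tested in cluster 10, 12 were higher (21.8%) and 2 lower (3.64%), against 6.31% and 6.08% of all genes, with a median of 0.12. The interferon-induced transcription factor *Irf1* was at 667 CPM against 37.1 CPM in resting cDC1s, a log2 fold change of 4.10, the interferon-induced GTPase *Igtp* was higher by 4.16 and the proteasome subunit *Psma4* by 0.41. *Rab7b* and *Rac2* were lower by -1.10 and -0.50. The 14 interferon-stimulated genes listed, of which 13 are in the matrices and *Cxcl9* was the most abundant, summed to 7307, 7360 and 8267 CPM in cluster 10 against 177, 172 and 161 CPM in resting cDC1s. In cluster 8 they summed to 1935, 1832 and 1415 CPM, with *Isg15* the most abundant.

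The count of 6 in cluster 10 fell to 3 with library as a block (9.68% of the 31 and 4.82% of all genes higher) and to 3 without the sGSN-/- or the sGSN-/-Clec9a-/- library (3.35% and 3.95% of all genes higher), and was 11 with DESeq2 (35.5%, against 9.11% of all genes). *Psmb6* did not pass without WT (0.45), sGSN-/- (0.60) or sGSN-/-Clec9a-/- (0.31), *H2-Q4* without them (0.75, 0.72 and 0.80), *Nlrc5* without sGSN-/- (0.91) or sGSN-/-Clec9a-/- (0.99), *Psma4* without those 2 (0.45 and 0.25) and *Rac2* without any (-0.31, -0.68 and -0.56). The calls of *H2-Q4*, *Psmb6* and *Nlrc5* also ended with library as a block (0.77, 0.46 and 1.05), those of *H2-Q4* and *Psmb6* without the deepest cells (0.76 and 0.42) or without cluster 6 (0.75 and 0.39), and that of *H2-Q4* with no filter (0.72). The cDC2 markers summed to 138, 509 and 107 CPM in cluster 10 against 28.1, 25.7 and 25.2 CPM in resting cDC1s, with *Cd209a* itself the most abundant at 210.5 CPM. Monocyte markers summed to 989, 1057 and 1028 CPM against 594, 682 and 646 CPM. Among them *Plac8* averaged 878 against 328.5 CPM, and *Ccr2* was lower at 119.3 against 304.8 CPM. Macrophage markers summed to 81.5, 64.4 and 100.4 CPM against 55.4, 41.0 and 45.7 CPM. Of these, *Fcgr1* averaged 49.4 against 2.60 CPM, while *Apoe*, *C1qa*, *C1qc*, *Adgre1* and *Mrc1* had lower means than in resting cDC1s. The cDC1 markers summed to 2002, 1901 and 1747 CPM against 2721, 2720 and 2721 CPM. What part these markers had in the result was not tested.

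Set directly against cluster 10, cluster 8 was higher in classical and Q-region heavy chains and in the light chain, and the immunoproteasome subunits did not pass. This comparison of *Ccr7* and *Il12b* cells with *Cxcl9* cells tested 29 of the 31 genes, leaving *H2-T24* and *Rab27a* below the count filter. It called 11 higher (37.9%) and 1 lower (3.45%), where 18.8% of 4229 genes were higher and 16.2% lower, and the median log2 fold change was 0.31 against 0.01 over all genes.

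*H2-Q6*, *H2-Q7* and *H2-Q4* were higher in cluster 8 by log2 fold changes of 3.67, 2.68 and 1.79. *H2-K1* was at 2133 ± 253 CPM (SD, n = 3) in cluster 8 and at 814 ± 155 CPM in cluster 10. Its log2 fold change was 1.56 (SE 0.17) with adjusted p = 1.2e-05 by edgeR's quasi-likelihood F test (Benjamini-Hochberg), higher in 3 of 3 libraries. *B2m*, *H2-D1* and *Nlrc5* were higher by 1.21, 0.99 and 1.58. *Psme2*, *Lnpep*, *Psme1* and *Tapbp* were higher by 0.97, 0.64, 0.55 and 0.47. *Tap1* was lower in 3 of 3 libraries, with a log2 fold change of -0.23 that did not pass, and neither did *Psmb8*, *Psmb9* and *Psmb10* (-0.07, -0.04 and -0.03). Leaving out 1 library moved these values: *Psmb10* was at -0.29 without WT and 0.32 without sGSN-/-Clec9a-/-, *Psmb8* and *Psmb9* at 0.13 and 0.07 without sGSN-/-Clec9a-/-, and *Tap1* between -0.40 and -0.10. *Wdfy4* was lower by a log2 fold change of -1.001, a call that ended without the WT (-0.79) or the sGSN-/- library (-0.73).

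Of 46 other pathway genes tested between these clusters, 2 were higher in cluster 8 (4.35%) and 15 lower (32.6%), against 18.8% and 16.2% of all genes, with a median of -0.26. The 2 higher were the NADPH oxidase subunit *Cyba* (0.60) and the ATPase *Vcp* (0.58), and *Igtp*, *Irf1*, the aminopeptidase *Lap3* and the translocon subunit *Sec61g* were lower by -3.48, -1.37, -1.27 and -0.41. Without TMM factors the median of all genes moved by -0.17, the share of called genes that were higher went from 53.8% to 39.1%, and *Tapbp* (0.30), *Lnpep* (0.47) and *Vcp* (0.41) no longer passed. *Tapbp*, *Lnpep* and *Sec61g* also did not pass without WT (0.45, 0.79 and -0.48), sGSN-/- (0.55, 0.60 and -0.31) or sGSN-/-Clec9a-/- (0.47, 0.59 and -0.40), nor *Psme1*, *Vcp* and *Cyba* without WT (0.46, 0.52 and 0.53) or sGSN-/- (0.54, 0.59 and 0.59).

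Cluster 7, marked by interferon-stimulated genes, was higher than resting cDC1s in genes from every stage of the pathway, and *H2-T24*, a T-region heavy chain, had the largest log2 fold change of the 31. It had 20 of the 31 genes higher (64.5%) and 1 lower (3.23%), where 12.6% of 10269 genes tested were higher and 6.56% lower. The median log2 fold change was 0.39, against -0.03 over all genes.

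*H2-T24* was at 15.3, 14.7 and 8.55 CPM in cluster 7 (35, 31 and 15 UMIs) and at 3.13, 2.83 and 3.36 CPM in resting cDC1s. *H2-T22* was at 88.2, 107.5 and 64.4 CPM against 43.0, 41.5 and 39.7 CPM. *H2-T23* was at 488.5, 552 and 418 CPM against 293, 308 and 272 CPM. For all 3 of these neighbouring genes the cluster 7 libraries were above the resting ones, and sGSN-/-Clec9a-/- was lowest in cluster 7. *H2-T24* had a log2 fold change of 2.18 (SE 0.24) with adjusted p = 2.9e-06 by edgeR's quasi-likelihood F test (Benjamini-Hochberg), higher in 3 of 3 libraries, and *H2-T22* and *H2-T23* had log2 fold changes of 1.19 and 0.85.

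The classical heavy chains differed little: *H2-K1* and *H2-D1* each had a log2 fold change of 0.25. *B2m* was higher by 0.53, at 1513, 1451 and 1493 CPM. *H2-Q4* was higher by 0.57, and *H2-Q6* and *H2-Q7* did not pass (0.29 and 0.22). *Nlrc5* was at 33.3, 33.1 and 43.9 CPM, a log2 fold change of 1.28 (SE 0.14) with adjusted p = 1.5e-06 by edgeR's quasi-likelihood F test (Benjamini-Hochberg), higher in 3 of 3 libraries. Among loading genes, *Tapbpl*, *Tapbp* and *Tap1* were higher by 0.84, 0.61 and 0.39, and *Tap2* did not pass (0.14).

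All 3 immunoproteasome subunits were higher in cluster 7, *Psmb10* at 223, 250.5 and 279 CPM against 159, 169 and 170 CPM. Its log2 fold change was 0.70, and those of *Psmb9* and *Psmb8* were 0.47 and 0.39. *Psme2* and *Psme1* were higher by 0.56 and 0.44. The constitutive subunits *Psmb7* and *Psmb6* were higher by 0.32 and 0.29, *Psmb7* in 2 of 3 libraries. Among cross-presentation genes, *Lnpep* and *Rab11a* were higher by 0.63 and 0.44, *Sec61a1*, the translocon channel, was lower at 55.3, 42.6 and 53.0 CPM against 70.2, 73.4 and 70.9 CPM (log2 fold change -0.40), and *Wdfy4* did not pass (-0.14).

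Of 55 other pathway genes tested in cluster 7, 16 were higher (29.1%, against 12.6% of all genes) and 0 lower by edgeR (5 lower at an unadjusted p below 0.05, and 0 by DESeq2), with a median of 0.16. *Igtp* was higher by a log2 fold change of 2.74 and *Cybb* by 2.34. The cDC1 transcription factor *Batf3*, the proteasome subunit *Psma3* and the proteasome assembly factor *Pomp* were higher by 0.27, 0.26 and 0.23. The interferon-stimulated genes summed to 3208, 3690 and 3603 CPM in cluster 7.

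Without TMM factors the median of all genes in cluster 7 moved by -0.11 and the share of called genes that were higher from 65.7% to 43.2%; *H2-K1* (0.14), *H2-D1* (0.14), *Psmb6* (0.18), *Psmb7* (0.21), *Pomp* (0.12), *Psma3* (0.15) and *Batf3* (0.16) then did not pass, and *Wdfy4* passed as lower (-0.25), as it did with library as a block (-0.14). The calls of *H2-K1* and *H2-D1* also ended without WT (0.25 and 0.27) or sGSN-/- (0.20 and 0.19), that of *Sec61a1* without sGSN-/- (-0.28), those of *Psmb6*, *Psmb7*, *Pomp* and *Psma3* without WT (0.28, 0.33, 0.21 and 0.28), sGSN-/- (0.32, 0.44, 0.25 and 0.31) or sGSN-/-Clec9a-/- (0.28, 0.20, 0.23 and 0.20), and that of *Batf3* without sGSN-/- (0.22) or sGSN-/-Clec9a-/- (0.28). Macrophage markers summed to 114, 79.6 and 128 CPM in cluster 7 against 55.4, 41.0 and 45.7 CPM in resting cDC1s. *Fcgr1* averaged 63.2 against 2.60 CPM, while *Apoe* (20.1 against 22.7 CPM) and *Adgre1* (1.36 against 3.09 CPM) were lower. Monocyte markers summed to 1155, 1456 and 1376 CPM against 594, 682 and 646 CPM. Of these, *Plac8* averaged 1107 against 328.5 CPM, and *Ccr2* was lower at 173.5 against 304.8 CPM. The part of these markers in the result was not tested.

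Cluster 10 set directly against cluster 7, *Cxcl9* cells against the other interferon-marked cells, gave 0 higher by edgeR and 2 lower (6.67%) of 30 genes tested, where 4.72% of 6484 genes were higher and 5.69% lower. At an unadjusted p below 0.05, 5 of the 30 were higher by edgeR, and DESeq2 called 1. The median was -0.09 against 0.00 over all genes. The recycling endosome GTPase *Rab11a* was at 124, 148 and 144 CPM in cluster 10 and at 212, 204 and 203 CPM in cluster 7, and *H2-T23* at 354, 399.6 and 331 CPM against 488.5, 552 and 418 CPM. Both were lower in cluster 10 in every library. *Rab11a* had a log2 fold change of -0.63 (SE 0.15) with adjusted p = 0.010 by edgeR's quasi-likelihood F test (Benjamini-Hochberg), higher in 0 of 3 libraries, and *H2-T23* one of -0.49.

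*H2-K1*, *H2-D1*, *B2m*, *Psmb8*, *Psmb9*, *Psmb10*, *Nlrc5* and *Wdfy4* did not pass between clusters 10 and 7, with log2 fold changes from -0.20 to -0.08. With 1 library left out some of them lay outside this range. *H2-K1* was at -0.26 without WT and 0.02 without sGSN-/-, and *Nlrc5* at -0.30 without sGSN-/-. Without sGSN-/-Clec9a-/-, *Psmb9*, *Psmb10* and *Wdfy4* were at -0.315, -0.30 and -0.007. *Tap1* had 0.37 and passed with DESeq2 (0.38) and without TMM factors (0.43). Of 51 other pathway genes, 4 were higher (7.84%) and 1 lower (1.96%), against 4.72% and 5.69% of all genes: *Irf1* by 2.92, *Igtp* by 1.52, the transcription factor *Creb1* by 1.15, the proteasome subunit *Psma7* by 0.43 and *Rab7b* by -0.82. The count of 2 was 0 without the WT or the sGSN-/- library and 1 without sGSN-/-Clec9a-/-. *Rab11a* did not pass without WT (-0.51) or sGSN-/- (-0.70), *H2-T23* without WT (-0.45), sGSN-/- (-0.48) or sGSN-/-Clec9a-/- (-0.55), *Psma7* without sGSN-/- (0.41) or sGSN-/-Clec9a-/- (0.35), and *Creb1* without WT (1.22) or sGSN-/- (0.69).

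Cluster 9, marked by NF-kB targets, was higher than resting cDC1s in 5 of the 31 genes (16.1%), all of them heavy chains, and lower in 1 (3.23%), where 4.04% of 10224 genes were higher and 1.33% lower. The median log2 fold change was 0.03 against -0.01 over all genes. *H2-Q6* was at 103, 86.5 and 77.0 CPM, *H2-Q4* at 51.9, 70.3 and 51.8 CPM, and *H2-Q7* at 170.0, 191 and 151 CPM. Every one of these lay above all resting values of its gene. *H2-Q6* had a log2 fold change of 1.59 (SE 0.16) with adjusted p = 7.1e-07 by edgeR's quasi-likelihood F test (Benjamini-Hochberg), higher in 3 of 3 libraries, and *H2-Q4* and *H2-Q7* had 1.15 and 0.68. *H2-K1*, at 988, 1063 and 965 CPM, was higher by 0.40, and *H2-D1*, at 1953, 2035 and 1818 CPM, by 0.32.

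The other stages of the pathway gave few calls in cluster 9. *B2m*, *Tap1*, *Psmb10* and *Wdfy4* had log2 fold changes of 0.12, 0.06, 0.05 and 0.05, and *Psmb8* and *Psmb9* of -0.20 each; none of these 6 passed. *Nlrc5* was at 21.1, 37.8 and 22.2 CPM, a log2 fold change of 0.69 that did not pass, but did with DESeq2 (0.70) and with cluster 6 left out of the resting cells (0.82), an alternative chosen after seeing the data; without the sGSN-/- library it was 0.41. The constitutive subunit *Psmb5* was lower at 157.5, 146 and 157 CPM against 196, 213 and 188 CPM (log2 fold change -0.34).

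Of 55 other pathway genes tested in cluster 9, 4 were higher (7.27%, against 4.04% of all genes) and 0 lower by edgeR (9 lower at an unadjusted p below 0.05, and 2 by DESeq2), with a median of -0.09. The 4 were *Irf1*, at 159 CPM against 37.1 CPM (2.10), the Q-region gene *H2-Q10* (1.68), *Creb1* (0.80) and the chaperone *Hspa5* (0.56). The count of 6 genes was 2 without the WT library, 3 without sGSN-/- and 4 without sGSN-/-Clec9a-/-. The calls of *Psmb5*, *H2-D1* and *H2-Q10* ended without WT (-0.39, 0.30 and 1.76), sGSN-/- (-0.27, 0.27 and 1.69) or sGSN-/-Clec9a-/- (-0.39, 0.35 and 1.59), that of *H2-K1* without WT (0.38) or sGSN-/- (0.35), and those of *H2-Q7* and *Creb1* without WT (0.58 and 0.57). Interferon-stimulated genes, *Cxcl9* the most abundant, summed to 537, 1110 and 626 CPM in cluster 9 against 177, 172 and 161 CPM in resting cDC1s, with sGSN-/- the highest. Cycling markers, *Mki67* the most abundant, summed to 63.4, 59.5 and 53.3 CPM in cluster 9 against 17.1, 18.2 and 13.4 CPM in resting cDC1s, and their part in the result was not tested.

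The highest mean of a gene over 11 clusters was in cluster 8 for 11 genes, in clusters 5 and 7 for 6 each, in cluster 6 for 5, in cluster 10 for 2 and in cluster 4 for 1. Of the 8766 genes at or above the lowest level of the 31, 13.7% were highest in cluster 8, 968 genes in cluster 5, 4.69% in cluster 7, 31.9% in cluster 6, 10.7% in cluster 10 and 9.97% in cluster 4, against 35.5%, 19.4%, 19.4%, 16.1%, 6.45% and 3.23% of the 31. In 8, 2, 3, 3, 1 and 0 of the 31, in that order, all libraries of the highest cluster lay above all libraries of the others. The share of all genes set apart in this way was not taken, so these counts have no background. The highest mean was 12.03 times the lowest for *H2-Q6*, 11.3 times for *Nlrc5* and 1.51 times for *Rab11a*.

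Cluster 5, the resting cells marked by the unfolded protein response, was compared with the other resting cDC1s. It was higher in *Sec22b* and *Sec61a1*, the endoplasmic reticulum genes of cross-presentation, in the 3 constitutive and 2 of the 3 inducible proteasome subunits, and lower in *Nlrc5*, *Wdfy4* and tapasin. Of the 31 genes, 10 were higher (32.3%) and 6 lower (19.4%), where 16.4% of 10109 genes tested were higher and 14.7% lower. The median was -0.07 against -0.01 over all genes. With library as a block, 10 of the 31 were higher (32.3%) and 12 lower (38.7%), against 18.8% and 17.4% of all genes; gene-wise deviations correlated between the sides of a library by 0.196, 0.165 and 0.199.

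*Sec22b*, a SNARE that brings endoplasmic reticulum membrane to phagosomes, was at 47.6, 48.5 and 48.4 CPM in cluster 5 and at 23.3, 24.2 and 23.3 CPM in the other resting cells. *Sec61a1* was at 127, 124 and 105 CPM against 61.7, 62.7 and 65.3 CPM. The libraries of each side were close together and well apart from the other side. *Sec22b* had a log2 fold change of 1.02 (SE 0.10) with adjusted p = 5.9e-07 by edgeR's quasi-likelihood F test (Benjamini-Hochberg), higher in 3 of 3 libraries, and *Sec61a1* had 0.90 (SE 0.08).

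The constitutive subunits *Psmb6*, *Psmb5* and *Psmb7* were higher in cluster 5 by log2 fold changes of 0.81, 0.59 and 0.48. *Psmb10*, *Psmb8* and *Psme2* were higher by 0.35, 0.34 and 0.30, and *Psmb9* did not pass (-0.20). *H2-M3*, which presents N-formylated peptides, was higher by 0.49, at 114, 112 and 126 CPM against 83.7, 93.1 and 72.1 CPM, and *Tapbpl* by 0.41. Cluster 5 held the highest mean level of *H2-M3* among the 11 clusters compared, above every library of the others, with cluster 11 at 253, 115.0 and 239.5 CPM (11, 9 and 7 UMIs).

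*Nlrc5* was at 7.21, 8.93 and 8.84 CPM in cluster 5 and at 17.9, 17.02 and 17.5 CPM in the other resting cells. This was its lowest mean among the clusters compared. The log2 fold change was -1.10 (SE 0.17) with adjusted p = 1.1e-04 by edgeR's quasi-likelihood F test (Benjamini-Hochberg), higher in 0 of 3 libraries. *Wdfy4*, at 315, 318 and 317 CPM against 478, 506 and 524 CPM, was lower by -0.68, and *H2-Q6*, *Tapbp*, *Lnpep* and *Tap1* were lower by -0.69, -0.38, -0.34 and -0.28. *H2-K1*, *H2-D1* and *B2m* had log2 fold changes of -0.10, -0.06 and -0.12 and did not pass in the fit without a block. By CPM, *H2-D1* and *B2m* were lower in every library without overlap.

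Of 56 other pathway genes tested in cluster 5, 26 were higher (46.4%) and 9 lower (16.1%), against 16.4% and 14.7% of all genes, with a median of 0.28. *Hspa5*, the chaperone BiP, was at 2666 CPM against 789 CPM (1.75), and *Cd1d1* and *Kctd14* were higher by 2.22 and 1.63. The iron regulator *Hfe*, the class II and class I promoter factor *Rfx5*, and *Rab43* were lower by -1.25, -1.004 and -0.50. The call of *Rfx5* ended without WT (-0.92) or sGSN-/- (-0.55), with DESeq2 (-0.98) or without cluster 6 (-0.94), and its value was -1.65 without sGSN-/-Clec9a-/-. That of *Lnpep* ended without sGSN-/-Clec9a-/- (-0.27) or without cluster 6 (-0.19). Cycling markers, all with UMIs and *Birc5* the most abundant, summed to 39.7, 33.2 and 28.1 CPM in cluster 5 against 13.3 ± 2.06 CPM (SD, n = 3) in the other resting cells. Of these, *Top2a* was lower in cluster 5, at 4.05 against 5.17 CPM. Monocyte markers summed to 882, 867 and 871 CPM against 551, 642 and 608 CPM. Among them *Plac8* averaged 568.7 against 286.8 CPM, and *Ccr2* was no higher at 296.8 against 306.4 CPM. The cDC1 markers summed to 1892, 1993 and 2039 CPM against 2846, 2874 and 2836 CPM. Their part in the result was not tested.

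Cluster 6, also resting, is given as a description because its cells were shallow, with medians of 9374, 7237 and 8288.5 UMIs against 14423.5, 14749 and 12725.5 UMIs over all resting cells. Its *Wdfy4* was at 863, 948 and 849 CPM, the highest mean of the 11 clusters compared, with cluster 11 at 1127, 1111 and 821 CPM, and its *Tapbp* and *Lnpep* averaged 354.5 ± 8.96 and 134 ± 8.51 CPM, also the highest means of those 11. *Psmb8* averaged 679.8 ± 58.5 CPM and *Psmb5* 108 ± 8.26 CPM there, the lowest means of those genes among the 11. It held the lowest mean of 9 of the 31 genes over these clusters, and the share of all genes lowest there was not taken.

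Early cDC1s, clusters 4 and 1, were lower than resting cDC1s in 3 of 9 heavy chains, the light chain, *Nlrc5*, both transporter subunits and tapasin, and higher in the constitutive proteasome subunits *Psmb5* and *Psmb6* but not past the threshold in *Psmb7* (log2 fold change 0.15). Of the 31 genes, 5 were higher (16.1%) and 11 lower (35.5%), where 19.1% of 10696 genes tested were higher and 19.4% lower. The median was -0.14 against -0.01 over all genes. With library as a block, 7 of the 31 were higher (22.6%) and 15 lower (48.4%), against 22.7% and 22.4% of all genes.

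*H2-Q7* was at 43.1, 56.2 and 77.2 CPM in early cDC1s and at 94.4, 104 and 124 CPM in resting cDC1s. In both groups the order of the libraries was the same, with sGSN-/-Clec9a-/- highest and WT lowest. The log2 fold change was -0.88 (SE 0.17) with adjusted p = 9.3e-04 by edgeR's quasi-likelihood F test (Benjamini-Hochberg), higher in 0 of 3 libraries. *H2-Q6*, *B2m* and *H2-D1* were lower by -0.75, -0.40 and -0.29, and *H2-K1* did not pass (-0.17). *Nlrc5* was lower by -0.57, at 10.2, 11.7 and 10.6 CPM, and *Tap1*, *Tap2* and *Tapbp* by -0.46, -0.29 and -0.19.

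*Wdfy4* was at 316, 319 and 315 CPM in early cDC1s, a log2 fold change of -0.58 (SE 0.06) with adjusted p = 9.0e-06 by edgeR's quasi-likelihood F test (Benjamini-Hochberg), higher in 0 of 3 libraries. *Psmb9* was lower by -0.33 while *Psmb10*, also of the immunoproteasome, was higher by 0.22. *Psmb6* and *Psmb5* were higher by 0.39 and 0.34, *Psme2* by 0.24, and *Rab27a* by 0.63, at 19.6, 17.98 and 15.8 CPM against 12.2, 10.3 and 12.2 CPM. *Sec61a1* was lower by -0.38.

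Of 56 other pathway genes tested in early cDC1s, 19 were higher (33.9%) and 7 lower (12.5%), against 19.1% and 19.4% of all genes, with a median of 0.07. *Cybb* was higher by 2.35, *Kctd14* by 0.75 and the kinase *Syk* by 0.68, and *Hfe*, *Rab43* and *Rab7b* were lower by -0.64, -0.52 and -0.51. The call of *Psmb10* ended without WT (0.21) or sGSN-/- (0.23) and without cluster 6 (0.15), and that of *Psme2* without WT (0.20). The cDC1 markers summed to 1534, 1609 and 1598 CPM in early cDC1s against 2721, 2720 and 2721 CPM in resting cDC1s. The cDC2 markers, all with UMIs and *Cd209a* the most abundant, summed to 161, 131 and 157 CPM against 28.1, 25.7 and 25.2 CPM. Monocyte markers summed to 1035, 1109 and 1158 CPM against 594, 682 and 646 CPM. Among them *Plac8* averaged 776.2 against 328.5 CPM, and *Ccr2* was no higher at 285.2 against 304.8 CPM. Interferon-stimulated genes, *Isg15* the most abundant, summed to 279, 309 and 294 CPM against 177, 172 and 161 CPM. Their part in the result was not tested.

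Against the *Cd209a* barcodes of the same libraries, the table's cDC1s were higher in the transporter, tapasin, *Tapbpl* and the immunoproteasome subunits, in 3 of 6 cross-presentation genes (*Wdfy4*, *Rab11a* and *Sec61a1*), and not in the classical heavy or light chains. Of the 31 genes, 21 were higher (67.7%) and 2 lower (6.45%), where 28.6% of 12949 genes tested were higher and 31.7% lower. The median was 0.44 against -0.01 over all genes. With library as a block, 23 were higher (74.2%) and 3 lower (9.68%), against 31.8% and 34.2% of all genes; gene-wise deviations correlated within a library by 0.271, 0.319 and 0.276, the highest of the 9 comparisons.

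*Wdfy4* was at 414, 408.5 and 443 CPM in cDC1s and at 93.6, 104.5 and 97.1 CPM in the *Cd209a* barcodes. *Psmb9* was at 626, 657 and 665 CPM against 224, 233 and 231 CPM. The libraries of the 2 sides did not come near each other for either gene. *Wdfy4* had a log2 fold change of 2.28 (SE 0.07) with adjusted p = 1.2e-08 by edgeR's quasi-likelihood F test (Benjamini-Hochberg), higher in 3 of 3 libraries, and *Psmb9* had 1.68 (SE 0.06). *Tap2*, *Psme1* and *Tap1* were higher by 1.56, 1.40 and 1.35, *Tapbpl* by 1.20, *Psmb8* by 1.10, *Rab11a* by 1.05, *Psme2* by 1.03, *Nlrc5* by 0.89 and *Tapbp* by 0.67.

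Among heavy chains, *H2-M3*, *H2-T23*, *H2-T24* and *H2-Q6* were higher in cDC1s by 0.57, 0.55, 0.54 and 0.46. *H2-K1* was lower, at 790, 847 and 818 CPM against 1049, 1077 and 1073 CPM, and every cDC1 library lay below every library of the *Cd209a* barcodes. Its log2 fold change was -0.20 (SE 0.06) with adjusted p = 0.010 by edgeR's quasi-likelihood F test (Benjamini-Hochberg), higher in 0 of 3 libraries. *H2-D1* was at 1602, 1628 and 1543 CPM against 1786, 1785 and 1718 CPM, and *B2m* at 1143, 1179 and 1130 CPM against 1317, 1318 and 1386 CPM. Both were lower by CPM in every library without overlap, while their log2 fold changes with TMM factors, 0.03 and -0.04, did not pass. *Lnpep* was lower by -0.24. *Psmb5*, *Psme3* and *Psmb6* were higher by 0.25, 0.21 and 0.17, in 2, 2 and 1 of 3 libraries.

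Of 58 other pathway genes tested against the *Cd209a* barcodes, 29 were higher (50.0%) and 12 lower (20.7%), against 28.6% and 31.7% of all genes, with a median of 0.18. *Rab7b* and the cDC1 transcription factors *Irf8* and *Batf3* were higher by 2.62, 2.55 and 1.93, and *Cybb*, the antigen-presenting *Mr1* and *Cd1d1* were lower by -4.50, -3.32 and -1.42. Without TMM factors the median of all genes moved by -0.18 and the share of called genes that were higher from 47.5% to 28.8%, and 17 of the 31 genes were higher (54.8%) and 7 lower (22.6%), against 17.4% and 42.9% of all genes; *Psmb5* (0.07) and *Psme3* (0.03) then did not pass and *Psmb6* changed sign (-0.01). *Psmb6* also did not pass without sGSN-/- (0.12) or sGSN-/-Clec9a-/- (0.17), *Psme3* without WT (0.21) or sGSN-/- (0.18), and *H2-K1* without WT (-0.17). With barcodes of at least 2 *Cd209a* UMIs, 22 were higher and 2 lower (28.3% and 31.1% of all genes), and without those holding *Xcr1* or *Clec9a* UMIs 21 and 2 (29.8% and 32.2% of all genes). In sGSN-/-Clec9a-/- that last filter rests mainly on *Xcr1*, since *Clec9a* is deleted. With resting cDC1s alone, 18 were higher (58.1%) and 3 lower (9.68%), against 29.7% and 32.5% of all genes, and *Psmb6* did not pass (0.05). *C1qb* was the most abundant of the macrophage markers in the *Cd209a* barcodes, and NK cell markers summed to 142, 337 and 267 CPM there. Cycling markers, *Top2a* the most abundant, summed to 174, 294 and 247 CPM there against 20.2, 22.9 and 19.00 CPM in the table's cDC1s. Per the study's methods, clusters of proliferating, NK, T and plasmacytoid cells were taken out before the cDC1s were clustered, which was not done for the *Cd209a* barcodes, so cycling cannot be told apart from the sides compared. The part of these markers in the result was not tested.

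The share of the immunoproteasome was taken as the UMIs of *Psmb8*, *Psmb9* and *Psmb10* out of those plus *Psmb5*, *Psmb6* and *Psmb7*, the constitutive subunits they replace. It was 80.1% ± 0.418 (SD, n = 3 libraries) in the table's cDC1s and 68.2% ± 0.618 in the *Cd209a* barcodes. The 3 cDC1 libraries, at 79.8%, 80.0% and 80.6%, lay above the 67.8%, 68.9% and 67.8% of the *Cd209a* barcodes. With every cell thinned to 3900 UMIs the means were 79.8% and 68.5%. An exact permutation test of 3 libraries against 3 cannot give a two-sided p below 0.1 and was not run.

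Within cDC1s the share was 77.5% ± 0.342 in early and 80.7% ± 0.552 in resting cells. Among activated clusters it was 82.5% ± 0.484 in cluster 7, 81.1% ± 1.61 in cluster 9, 80.8% ± 0.850 in cluster 8 and 78.4% ± 0.523 in cluster 10. Cluster 10, with all 3 immunoproteasome subunits above their resting mean, had a lower share than resting cells, and its *Psmb5*, *Psmb6* and *Psmb7* were above their resting means too, at 259.5 ± 25.5, 264 ± 42.8 and 172 ± 19.3 CPM against 199 ± 13.1, 183 ± 11.6 and 122 ± 9.04 CPM. Cluster 5 was at 76.3% ± 1.04, below the 81.6% ± 0.450 of the other resting cells.

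**Figure D3:**
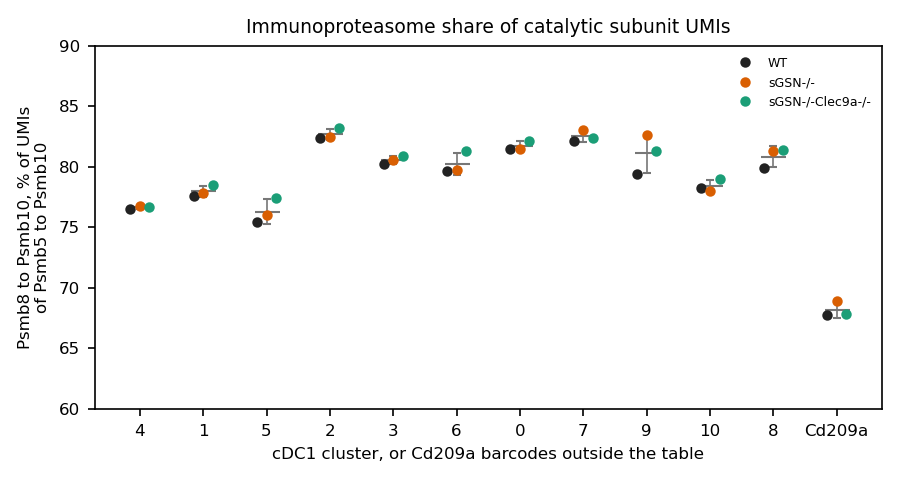
Points are libraries and bars their mean ± SD of the immunoproteasome share in percent of catalytic subunit UMIs, for 11 clusters and the *Cd209a* barcodes, on an axis from 60 to 90. The *Cd209a* barcodes, at 67.8% to 68.9%, lie below every group of cDC1s shown.

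Between the 3 libraries the pathway's levels were close over all of the table's cDC1s. The highest library exceeded the lowest by 25% or more for 1 of the 31 genes, *Tapbpl*, at 31.8, 40.3 and 32.6 CPM. Its exact 95% Poisson intervals were 29.9 to 33.8, 37.8 to 43.0 and 30.2 to 35.1 CPM, which cover counting error only. The median ratio of highest to lowest library was 1.10 over the 31 genes and 1.13 over those 8766 genes, 17.4% of which reached that 25%. The highest library was sGSN-/- for 21 of the 31 genes, sGSN-/-Clec9a-/- for 7 and WT for 3 (67.7%, 22.6% and 9.68%), and over the 8766 genes it was these libraries for 40.0%, 16.8% and 43.2%. With clusters weighted equally, 2 genes reached that 25%, *Tapbpl* (1.33-fold) and *H2-Q4* (1.28-fold). The tally of highest libraries also changed with these weights. WT was then highest for *H2-Q4*, *H2-T24*, *Psme1*, *Psme3*, *Erap1* and *Rab27a*.

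By position (GENCODE M21, GRCm38), 15 of the 31 genes are on chromosome 17 and 4 on chromosome 14. *Psmb9* (chr17:34181987-34187764, minus strand), *Tap1* (chr17:34187553-34197225), *Psmb8* (chr17:34197721-34201454) and *Tap2* (chr17:34203527-34216321) stand side by side, and the ends of *Psmb9* and *Tap1* overlap. These 4 neighbours had log2 fold changes of 0.24, 0.49, 0.21 and 0.50 in cluster 8 and 0.20, 0.65, 0.19 and 0.03 in cluster 10. *H2-K1* (ENSMUSG00000061232) is at chr17:33996017-34000347, *H2-D1* (ENSMUSG00000073411) at chr17:35262730-35267499, *H2-Q4* (ENSMUSG00000035929) at chr17:35379617-35385290, *H2-Q6* (ENSMUSG00000073409) at chr17:35424850-35430055 and *H2-Q7* (ENSMUSG00000060550) at chr17:35439155-35443773. *H2-T24* (ENSMUSG00000053835, chr17:36005695-36020560), *H2-T23* (ENSMUSG00000067212, chr17:36029773-36032855) and *H2-T22* (ENSMUSG00000056116, chr17:36037128-36042747) follow, and each overlaps *A930015D03Rik*. *Nlrc5* (ENSMUSG00000074151) is at chr8:94434356-94527272, *B2m* (ENSMUSG00000060802) at chr2:122147686-122153083 and *Wdfy4* (ENSMUSG00000051506) at chr14:32959547-33185508.

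Several of the genes have near-identical relatives. The share of 90-base windows of a gene's transcripts found in another gene was 27.8% for *Psmb5* (most in *Gm3375*), 20.2% for *Psme2* (*Psme2b*), 13.8% for *H2-Q7* (*H2-Q10*), 13.2% for *H2-Q6* (*H2-Q7*) and 11.8% for *H2-T22* (*H2-T10*). It was 4.25% for *H2-D1*, 4.01% for *H2-T23*, 3.70% for *H2-Q4*, 1.63% for *Rab27a* and 1.54% for *H2-K1*. How reads in such windows were divided among these genes was not tested.

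RefSeq promoter windows (GRCm38.p6, 300 bases from 250 before to 50 after the start) matched 25 of the 31 genes; *H2-T24*, *Tap2*, *Tapbpl*, *Psmb7*, *Nlrc5* and *Sec61a1* had none. Motifs were searched on both strands. GGGANTNCC, the letters of an NF-kB site, was in *H2-K1*, *H2-D1*, *H2-Q4*, *H2-Q6* and *H2-Q7*, and in 3.95% of 32851 promoter windows. GAAANNGAA, the core of an interferon-stimulated response element, was in *B2m*, *Erap1*, *H2-T22*, *H2-T23* and *Psme1* and in 8.56% of windows. TTCNNNGAA, the letters of a gamma-activated site, was in *H2-M3*, *Psmb8* and *Rab11a* and in 8.30% of windows. TGACGC, part of an X2 box, was in 7 of the genes and in 7.40% of windows, and ATTGG, the inverted CCAAT of a Y box, was in 17 of them and in 37.4% of windows, counting a gene with a match in any of its windows. A match is a description of the letters and not of a bound site. A gene without a match may hold another spelling of the same element, which was not searched.

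A stretch of 135 bases is shown for the 5 heavy chains with the NF-kB letters, and for *H2-T22*, *H2-T23* and *B2m* with the interferon-stimulated response element letters, so that the shared and differing letters can be read. Capitals mark the motif letters searched. The letters cagtttcacttctg, in lower case in all 5 of those heavy chains, match none of the patterns searched. *H2-K1* (chr17:34000348-34000482, minus strand) and *H2-D1* (chr17:35262899-35263033, plus strand) are the same at 122 of 135 positions without gaps (90.4%), and *H2-K1* and *H2-Q4* (chr17:35379419-35379553, plus strand) at 108 (80.0%). Without gaps *H2-Q4* and *H2-Q6* are the same at 65.2% of positions and *H2-K1* and *H2-Q7* at 41.5%; with 1 base of either passed over, *H2-Q4* and *H2-Q6* are the same at 110 positions (82.1%), *H2-Q6* and *H2-Q7* are the same at 131 positions (97.8%), in place of 43.0%, and *H2-K1* and *H2-Q7* at 98 (73.1%). The others are *H2-Q6* (chr17:35424653-35424787, plus strand), *H2-Q7* (chr17:35438998-35439132, plus strand), *H2-T22* (chr17:36042823-36042957, minus strand), *H2-T23* (chr17:36032715-36032849, minus strand) and *B2m* (chr2:122147523-122147657, plus strand), each 5′ to 3′ along its gene.
H2-K1: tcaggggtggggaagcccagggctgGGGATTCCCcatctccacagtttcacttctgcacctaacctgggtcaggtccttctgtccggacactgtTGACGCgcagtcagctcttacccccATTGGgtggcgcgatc
H2-D1: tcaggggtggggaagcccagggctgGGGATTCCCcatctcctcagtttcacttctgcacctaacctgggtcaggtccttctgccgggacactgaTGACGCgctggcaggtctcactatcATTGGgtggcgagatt
H2-Q4: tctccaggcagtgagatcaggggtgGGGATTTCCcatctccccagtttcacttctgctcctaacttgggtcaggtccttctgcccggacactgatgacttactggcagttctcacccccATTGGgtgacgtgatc
H2-Q6: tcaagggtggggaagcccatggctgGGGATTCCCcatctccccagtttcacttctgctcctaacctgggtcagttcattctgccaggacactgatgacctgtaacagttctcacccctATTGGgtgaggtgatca
H2-Q7: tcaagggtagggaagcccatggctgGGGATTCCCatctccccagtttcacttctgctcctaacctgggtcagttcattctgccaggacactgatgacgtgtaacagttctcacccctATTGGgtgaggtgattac
H2-T22: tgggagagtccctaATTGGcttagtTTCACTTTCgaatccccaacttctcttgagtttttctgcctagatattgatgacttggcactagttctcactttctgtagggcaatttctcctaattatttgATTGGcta
H2-T23: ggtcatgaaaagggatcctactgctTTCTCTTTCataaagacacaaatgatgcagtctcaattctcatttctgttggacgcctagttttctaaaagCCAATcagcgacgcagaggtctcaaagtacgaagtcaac
B2m: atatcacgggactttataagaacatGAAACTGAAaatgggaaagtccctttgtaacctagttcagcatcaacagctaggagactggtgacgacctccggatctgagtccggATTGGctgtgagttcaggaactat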

How the data were processed

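The authors deposited raw UMI counts, per the file headers made with Cell Ranger 6.0.1 on the mm10 genome, as counts for every barcode called a cell in 3 libraries, and a deposited table (unit: other) with cluster and cell type of 5806 cDC1s that the authors clustered with Seurat after removing barcodes with under 200 genes or more than 2 SD above the mean mitochondrial share. UMIs were summed over the cells of each group and library and given as CPM. Each comparison was fitted with edgeR 4.0.16 (R 4.3.3) on all genes that filterByExpr kept, with TMM factors, the quasi-likelihood test and Benjamini-Hochberg adjustment, calling adjusted p under 0.05; SE is the log2 fold change over the square root of F. The method was tested on simulated data. Alternatives were DESeq2 1.42.0, no TMM factors, no filter, library as a block, each library left out, the deepest 5% of cells of each group left out and, for the *Cd209a* barcodes, at least 2 UMIs, barcodes passing the quality limits (17.5% mitochondrial UMIs), barcodes without *Xcr1* or *Clec9a*, and resting cDC1s alone; leaving cluster 6 out of the resting cells was added after seeing the data. Groups of a comparison come from the same pool of mice, and gene-wise deviations correlated within a library by 0.209, 0.149 and 0.236 for early against resting cells and most, by 0.271, 0.319 and 0.276, for the table's cDC1s against the *Cd209a* barcodes. No doublet caller was run. Named genes are all called members up to 10, otherwise the 5 lowest and 5 highest fold changes, with *H2-K1*, *H2-D1*, *B2m*, *Tap1*, *Psmb8*, *Psmb9*, *Psmb10*, *Nlrc5* and *Wdfy4* always in activated clusters, and the 3 lowest and 3 highest called of the other pathway genes; other members are given to account for all 31. Not every gene that the rule names is printed. The members and lists were chosen with earlier results of these data known. Levels, intervals and figures were computed with Python 3.11.15, pandas 2.3.3, numpy 2.4.6, scipy 1.17.1 and matplotlib 3.10.9. Intervals cover counting error only.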

Additional observations from a re-analysis of the deposited data

Results flagged for a closer look

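The 15823 barcodes that are neither in the table nor carry *Cd209a* UMIs belong to no comparison. *H2-Q7* was at 250.2 CPM there on average, with 173.5, 313 and 264 CPM in WT, sGSN-/- and sGSN-/-Clec9a-/-, above every library of both the table's cDC1s and the *Cd209a* barcodes. *H2-Q6* was at 70.7 CPM (51.9, 88.6 and 71.6 CPM) and *H2-Q4* at 60.1 CPM (51.6, 72.0 and 56.7 CPM), also above every library of both. Macrophage markers summed to 3974, 2367 and 2955 CPM and NK cell markers to 857, 2024 and 1420 CPM in these barcodes, although the sort left out cells with surface NK1.1 or *Cd3e*, and their part in the levels was not tested.

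In some comparisons a gene passed while its libraries, 1 for each genotype, went different ways. *Psmb7* was higher in cluster 7 in 2 of 3 libraries, at 131, 127 and 169 CPM against 113, 131 and 123 CPM in resting cDC1s. *Psmb10* was higher in cluster 8 in 2 of 3 libraries, at 227, 216.5 and 149 CPM against 159, 169 and 170 CPM. Between the table's cDC1s and the *Cd209a* barcodes, *Sec61a1*, *Psme3* and *Psmb5* were higher by CPM in 2 of 3 libraries each and *Psmb6* in 1 of 3. These differences between libraries were not tested.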

How the results depend on the processing

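Of the comparisons of single genes with an alternative, 1329 kept their side of the threshold (17 of them, for genes that had not passed, with the other sign), 152 no longer passed, 13 came to pass and 1 called value changed sign: *Psmb6* between the table's cDC1s and the *Cd209a* barcodes, with a log2 fold change of -0.009 without TMM factors against 0.17 with them. Leaving out the WT, sGSN-/- or sGSN-/-Clec9a-/- library ended 34, 35 and 21 calls, scaling without TMM factors 17, leaving cluster 6 out of the resting cells 14, leaving the deepest cells out 9, no filter 8, library as a block 7 and DESeq2 6. Among the named genes, the block ended the calls of *Psmb6*, *H2-Q4*, *Nlrc5*, *Rac2* and *Psma4* in cluster 10, *Rab27a* in cluster 8 and *Lnpep* between clusters 8 and 10, and made that of *Wdfy4* in cluster 7; members called went from 16 to 22 for early cells and for cluster 5, from 21 to 24 for cluster 7 and from 23 to 26 against the *Cd209a* barcodes. With 1 library left out, 2 a side remain: members called in cluster 9 went from 6 to between 2 and 4, in cluster 10 from 6 to between 3 and 5, and between clusters 10 and 7 from 2 to between 0 and 1. Over all genes the counts went from 4114 to between 2579 and 3384 for early cells, from 3144 to between 1939 and 2542 for cluster 5, from 1967 to between 1227 and 1361 for cluster 7, from 549 to between 305 and 367 for cluster 9, from 1247 to between 610 and 773 for cluster 10, from 4478 to between 2925 and 4567 for cluster 8, from 1479 to between 939 and 1697 for cluster 8 against 10, and from 675 to between 345 and 481 for cluster 10 against 7. Members called in cluster 10 numbered 11 with DESeq2 and 3 with the block; between clusters 10 and 7 they numbered 5 with no filter and 1 without the deepest cells; the cause was not tested. Genes 25% or more apart between libraries numbered 2 in place of 1 with clusters weighted equally.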

Other observations

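Genotype rests on 1 library each, so the spread in every comparison holds genotype, pool, age and sex together. Cluster 10 has 21, 27 and 28 cells and cluster 8 84, 114 and 57, so genes of few UMIs there, *H2-T24* and *Rab27a* among them, were near or below the count filter. Transcript levels say nothing of protein, of peptide on the surface or of presentation to T cells.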
